A study of Homo sapiens with 18 samples.

Results

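PC3, a human prostate cancer cell line, was compared after transfection with 2 short RNAs that the labels name sCAG and sG5C. The 6 libraries compared, 3 of PC3 cells given sCAG and 3 of PC3 cells given sG5C, were picked by line and treatment label out of 18 in the series. In each, cells whose genotype is labelled wt had received 10 nM of 1 short RNA with a lipid reagent, and total RNA was taken after 48 h. The other libraries used are 3 of PC3 cells given another short RNA, sNT8, which the deposited tables use as the reference, and 9 of HeyA8, a human ovarian cancer cell line, with 3 for each of the same short RNAs. Both lines are established lines grown as bulk cultures, so fewer cells of a kind and less RNA per cell cannot be told apart. The labels do not say whether the libraries A, B and C of a group came from separate cultures, so p-values measure the spread between these libraries only. No library of untransfected cells was used here. The sG5C libraries carry a different name, Mxy, in their titles, and the treatment field was followed.

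The series title ties these RNAs to DISE, a form of cell death set off by short RNAs that enter the RNA interference machinery. In that machinery an Argonaute protein carries 1 strand of a short duplex and pairs it with messenger RNAs. Pairing along the whole strand leads to cleavage, and pairing through the short seed near its 5′ end leads to weaker repression of many transcripts, often through sites in 3′ UTRs. Double-stranded RNA inside a cell is also known to be read by sensors such as RIG-I, which switch on interferon, STAT signalling and interferon-stimulated genes. No source used here gives the sequences of the 3 short RNAs. From its name, sCAG was read as a CAG repeat, which would pair with runs of CTG in a transcript, and sG5C as a strand with the seed GGGGGC, which would pair with GCCCCC.

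CTG runs are the letters of interest on the sCAG side, and the sites of 7 genes described below are shown, with the run in capitals and the flanking bases in lower case. They come from GENCODE 29 transcripts on GRCh38, written 5′ to 3′ on the transcript strand, in windows of 30 bases. The site of LRRC59 lies in exon 7 on the minus strand at chr17:50383141-50383170, that of HTRA1 in exon 1 on the plus strand at chr10:122461677-122461706, and that of C4orf48 in exon 2 on the plus strand at chr4:2042397-2042426. These 3 runs are coding and are read as leucine codons, as is that of MLEC in exon 1 on the plus strand at chr12:120687339-120687368. The run of RPL14, which fills its whole window, is in exon 6 on the plus strand at chr3:40462030-40462059 and is read as alanine codons. The run of PTTG1IP, in exon 4 on the minus strand at chr21:44856274-44856303, is read as cysteine codons, and that of APLN lies in the 3′ UTR, in exon 3 on the minus strand at chrX:129646197-129646226.
LRRC59: ctgaagCTGCTGCTGCTGCTGCTGctattt
HTRA1: ctcccgCTGCTGCTGCTGCTGCTGgcggcg
C4orf48: ccgccgCTGCTGCTGCTGCTGCTGagtctg
MLEC: ctgcgaCTGCTGCTGCTGCTGCTGccgccg
RPL14: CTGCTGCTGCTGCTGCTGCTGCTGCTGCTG
PTTG1IP: tgccatCTGCTGCTGCTGCTGCTGcaggag
APLN: aacgCTGCTGCTGCTGCTGCTGCTGcttaa
On the sG5C side the letters of interest are GCCCCC in a 3′ UTR, shown in capitals for 4 genes described below, with 1 match each. The matches of HMGA1 and EIF5A are on the plus strand at chr6:34245496-34245525 in exon 5 and chr17:7312249-7312278 in exon 6. The match of AXL is on the plus strand at chr19:41261576-41261605 in exon 20, and that of POLR2E on the minus strand at chr19:1088482-1088511 in exon 8. The 3′ UTRs of HMGA1, EIF5A, POLR2E and AXL held 5, 4, 3 and 2 such matches in that order of genes.
HMGA1: ctaggttggacaGCCCCCttcggttacagg
EIF5A: gactggggaccaGCCCCCtcgcctgcctgt
POLR2E: agaaggaacaagGCCCCCagagggaggtca
AXL: ctgtgggggtgtGCCCCCttcaagcctgtg

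The 6 libraries held 33536172 to 41384838 gene reads in total and detected 33879 to 36188 genes. Levels are given as CPM, reads per 1000000 after joint TMM scaling of the 9 PC3 libraries, and fold changes as log2 of sCAG over sG5C with a standard error. CPM is not divided by gene length, so it compares libraries and not genes. All 37 mitochondrially encoded genes had 0 reads in every library and were not measured. Of 19 epithelial markers 15 passed the filter on low counts, 8 higher and 6 lower in sCAG, and their summed level was 1493 to 1519 CPM in sCAG, 1244 to 1346 CPM in sG5C and 1260 to 1407 CPM in sNT8. KRT8, KRT18 and KRT19 stood at 77.03 CPM or more in each of the 6. Other epithelial markers ranged widely. CLDN4 and TJP1 stood at 244.9 to 325.8 and 286 to 342.2 CPM, ELF3 at 37.29 to 68.52 CPM and OCLN at 22.35 to 31.64 CPM. EPCAM was lower, at 6.42 to 9.25 CPM, and KRT5, KRT14 and GRHL2 had no more than 1, 2 and 3 reads. Of 14 prostate markers 8 passed, 4 higher and 2 lower in sCAG. KLK3, the gene of prostate-specific antigen, had 0 reads in all 6 libraries, while KLK2 and FOLH1 had at most 2 and 1. HOXB13, a homeobox factor of prostate epithelium, had 227, 227 and 212 CPM in sCAG, against 47.1, 45.1 and 37.9 CPM in sG5C (log2 2.36 ± 0.07 SE). The part of these marker levels in any result was not tested. The summed prostate level was 267 to 284 CPM in sCAG, 76.3 to 90.0 CPM in sG5C and 298 to 315 CPM in sNT8, and HOXB13 made up most of it in sCAG and sNT8. Leukocyte markers summed to 5.21 to 6.26 CPM in sCAG, 4.42 to 5.75 CPM in sG5C and 6.10 to 7.98 CPM in sNT8, and PTPRC, which marks all leukocytes, had at most 4 reads. Of the 16 leukocyte markers 5 passed the filter, 1 higher and 1 lower in sCAG. Of 10 endothelial markers 7 passed, 2 higher and 4 lower, and their sums were 134 to 162 CPM in sCAG, 74.4 to 86.5 CPM in sG5C and 105 to 121 CPM in sNT8. KDR, a receptor of vascular growth factors, made up most of that sum in sCAG, at 93.6, 120.2 and 119 CPM in sCAG, against 29.7, 34.5 and 28.6 CPM in sG5C, and the list's median difference was -0.32. Of 12 fibroblast and smooth muscle markers 9 passed, 2 higher and 0 lower, with sums of 19.8 to 22.9 CPM in sCAG, 13.4 to 17.1 CPM in sG5C and 31.6 to 37.2 CPM in sNT8. EMCN and DCN had at most 2 reads in any of the 6 libraries, while other members of these lists were expressed. PECAM1 and ESAM of the endothelial list had 953 to 1408 and 198 to 301 reads, and COL1A1 of the fibroblast list had 142 to 402.

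Most of the measured transcriptome differed between the short RNAs. Of 24618 genes tested, 62.8% were called at an adjusted p under 0.05 (edgeR quasi-likelihood test). In sCAG 7792 were higher, which is 31.7% of those tested, and 7658 were lower, which is 31.1%. In 66.7% of genes tested the 3 sCAG libraries lay wholly above or below the 3 sG5C libraries. The median difference over all genes was -0.04 on the log2 scale, with quartiles of -0.60 and 0.52. With so large a share called, a list is read below against these percentages. Among the 14364 tested genes with a 3′ UTR the shares were larger, 39.7% higher and 36.1% lower. With a count minimum of 50, 6267 genes were higher and 6343 lower of 16384 tested. In every gene given with its values below as higher or lower in PC3, the libraries of the 2 groups did not overlap. The 12 highest and 12 lowest genes were picked on that condition and list members by p, so this follows largely from the choice of genes.

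The 12 protein-coding genes with the highest differences included 4 of the interferon response, CXCL9, CXCL10, CXCL11 and AIM2. CXCL11, a chemokine that draws T cells, had 18.01, 20.3 and 27.6 CPM in sCAG, against 0.467, 0.236 and 0.192 CPM in sG5C, and the groups did not overlap (log2 6.19 ± 0.23 SE, adjusted p = 5.31e-18). CXCL10, a chemokine of the same receptor, had 9.41, 10.8 and 14.8 CPM in sCAG, against 0.642, 0.353 and 0.467 CPM in sG5C. CXCL9, a further chemokine of that receptor, summed to 662 reads in sCAG libraries and 14 reads in sG5C libraries, a ratio of 46.3 with an exact 95% interval of 27.4 to 85.1 that covers counting error only, and had no read in sNT8. AIM2, a sensor of DNA in the cytosol, had 12.4, 13.8 and 14.3 CPM in sCAG, against 0.204, 0.707 and 0.714 CPM in sG5C. Other high genes belong to the cell surface and to chromatin. HMGA1, a chromatin architecture factor, had 2187, 2303 and 2439.7 CPM in sCAG, against 75.2, 71.8 and 60.4 CPM in sG5C, and 1385, 1357 and 1352 CPM in sNT8. The sCAG libraries lay above sNT8 and sG5C far below it (log2 5.06 ± 0.07 SE, adjusted p = 7e-26). AXL, a receptor tyrosine kinase, had 535, 506 and 526 CPM in sCAG, against 28.3, 23.4 and 24.2 CPM in sG5C, and 162, 146 and 146 CPM in sNT8. In HMGA1 and AXL the distance between the short RNAs was made up of both sides, higher than sNT8 in sCAG and lower than sNT8 in sG5C. TFEC, a transcription factor of the MiT family, KIF26A, a kinesin family member, CD177, a neutrophil surface protein, and TNFAIP6, a hyaluronan-binding protein, were also among them, at log2 differences of 5.57, 5.31, 4.37 and 4.09.

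Among the 12 lowest genes the 2 sides also differed. TMEFF2, a transmembrane protein with follistatin-like domains, summed to 6 reads in sCAG libraries and 569 in sG5C libraries, which is a ratio of sG5C over sCAG of 96.9 with an exact 95% interval of 44.3 to 265. C4orf48, which encodes a small secreted peptide, had 0.624, 0.464 and 0.608 CPM in sCAG, against 12.99, 14.9 and 16.1 CPM in sG5C, and 16.8, 14.1 and 12.3 CPM in sNT8. Its difference lay in sCAG. APLN, the apelin peptide, had 6.997, 5.41 and 6.30 CPM in sCAG, against 148, 126 and 132 CPM in sG5C, and 61.7, 56.4 and 58.8 CPM in sNT8. The 2 short RNAs lay on opposite sides of sNT8 (log2 -4.44 ± 0.08 SE). HTRA1, a secreted serine protease, had 3.44, 3.996 and 3.97 CPM in sCAG, against 82.5, 74.7 and 77.5 CPM in sG5C, and 39.2, 44.7 and 38.004 CPM in sNT8. In contrast, SYT11, a synaptotagmin of vesicle traffic, had 1.11, 1.08 and 0.895 CPM in sCAG, against 29.2, 30.4 and 31.5 CPM in sG5C, and 0.631, 0.715 and 1.03 CPM in sNT8. Its difference was an increase in sG5C. CYP4F12, a cytochrome P450, PPP1R1B, a phosphatase inhibitor, SLC40A1, the iron exporter ferroportin, and PPP2R2B, a phosphatase subunit, had log2 differences of -5.27, -4.61, -4.56 and -4.39. PURG, a purine-rich element binding protein, TEX14, a germ cell bridge protein, and MRC2, a collagen receptor, followed at log2 -4.34, -4.27 and -4.12.

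**Figure D1:**
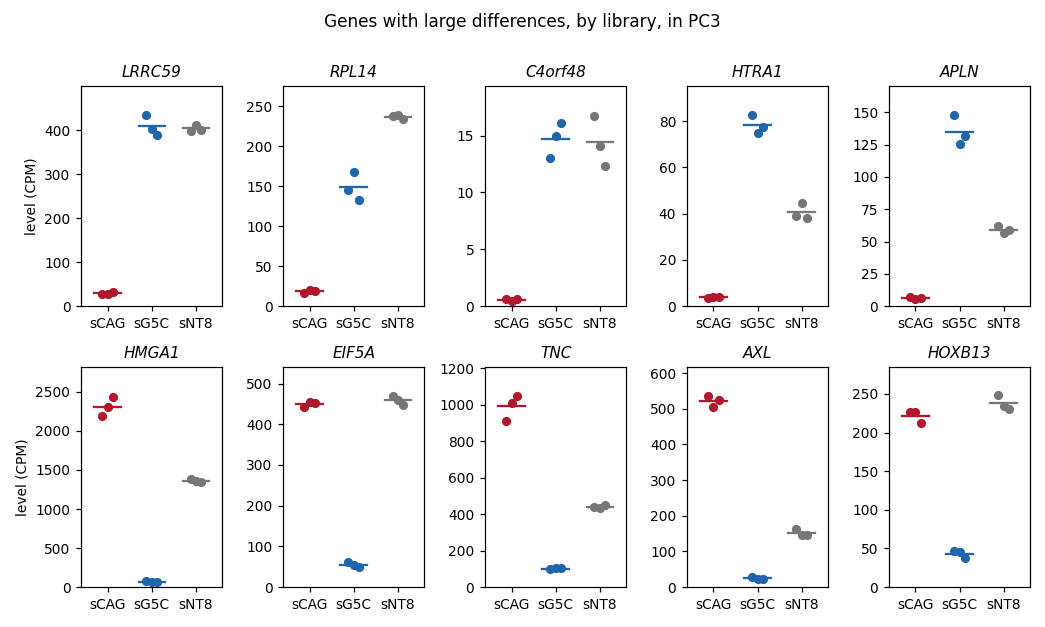
Levels in CPM (vertical axis, from 0) of 10 genes with large differences in each PC3 library given sCAG, sG5C or sNT8; each point is 1 library and each line the mean of 3. For the 5 genes of the upper row sCAG lies lowest, and for the 5 of the lower row sG5C lies lowest, with no overlap between sCAG and sG5C in any of them.

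Interferon-stimulated genes were higher in sCAG than in sG5C. All 45 interferon-stimulated genes on the list passed the filter, 43 were higher in sCAG and 0 lower, with a median log2 difference of 1.70 against -0.04 for all genes. OAS2, an enzyme that makes the activator of RNase L, had 829, 957 and 1108 CPM in sCAG, against 104, 108 and 117 CPM in sG5C, and 71.6, 89.7 and 102 CPM in sNT8. The sG5C libraries lay nearer to sNT8 and sCAG far above both (log2 3.14 ± 0.10 SE, adjusted p = 1.45e-19). MX2, a GTPase against viruses, had 148, 174 and 229 CPM in sCAG, against 17.1, 14.8 and 17.7 CPM in sG5C, and 6.94, 7.87 and 8.66 CPM in sNT8. OAS1, DTX3L and IFI35 were higher in sCAG as well, at log2 2.05, 1.99 and 2.71. DTX3L shares exon sequence with PARP9 on the opposite strand, and without a stated strand setting their reads cannot be told apart. Exons of HSF1, POLR2E, IRF9, IRF1, CDKN2A, TNFRSF10B, EIF2AK3 and GARS also overlap another gene. So do those of further genes named here, among them LRRC59 and AXL, where the largest overlapping gene had 0.0462 and 0.00358 times their reads.

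Of the factors known to switch these genes on, STAT2 and IRF7 were higher in sCAG, and IRF9 and IRF1 were not. IRF9, a DNA-binding subunit of the complex that interferon activates, had 10.7, 14.1 and 12.4 CPM in sCAG, against 11.03, 13.3 and 12.7 CPM in sG5C, and 4.58, 6.38 and 7.63 CPM in sNT8, a difference (log2 0.00 ± 0.13 SE) whose sign turned when libraries were scaled by totals alone, with limma and with a count minimum of 50. The sCAG and sG5C libraries overlapped and both lay above sNT8. IRF1, a factor of the interferon-gamma response, had 158, 161 and 181 CPM in sCAG, against 179, 177 and 233 CPM in sG5C, and 12.4, 17.2 and 16.2 CPM in sNT8. The groups overlapped, and its difference (log2 -0.24 ± 0.09 SE) passed at adjusted p = 0.0221, but missed the threshold with DESeq2 (0.214) and limma (0.245) and without library C of sG5C (0.299) or library A (0.13) or B (0.087) of sCAG. STAT2, another subunit of that complex, differed, at 493, 513 and 565 CPM in sCAG, against 202, 243 and 279.9 CPM in sG5C, and 82.3, 88.3 and 87.997 CPM in sNT8 (log2 1.12 ± 0.08 SE). IRF7, a factor that raises interferon genes, had 90.96, 98.8 and 109 CPM in sCAG, against 22.04, 20.8 and 22.5 CPM in sG5C, and 18.5, 19.5 and 20.6 CPM in sNT8. The sCAG and sG5C comparisons with sNT8 share the same 3 sNT8 libraries; the list's median over sNT8 was 2.65 on the log2 scale for sCAG and 1.21 for sG5C.

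**Figure D2:**
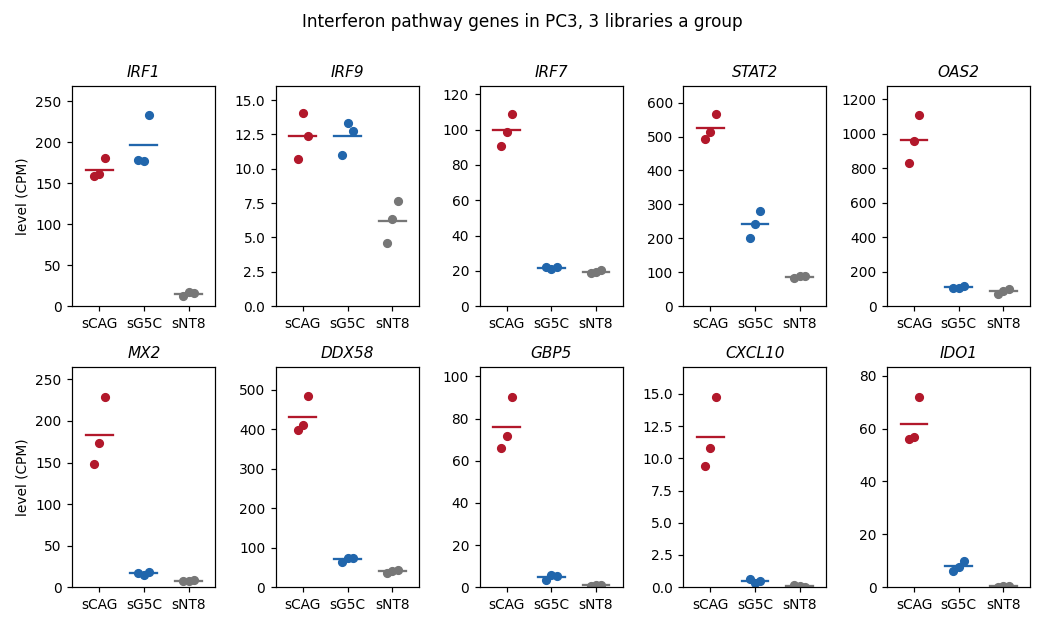
Levels in CPM (vertical axis, from 0) of 10 interferon pathway genes in each PC3 library given sCAG, sG5C or sNT8; each point is 1 library and each line the mean of 3. IRF1 and IRF9 overlap between sCAG and sG5C, while OAS2, MX2, DDX58, GBP5, CXCL10 and IDO1 stand far higher in sCAG.

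Genes known mainly from the response to interferon-gamma were also mostly higher in sCAG, with 31 of 34 tested, 29 higher, 1 lower and a median of 1.75. The list's median over sNT8 was 3.43 for sCAG and 1.78 for sG5C, above 0 with both short RNAs. GBP5, a guanylate-binding protein of cell defence, had 65.9, 71.8 and 90.4 CPM in sCAG, against 3.50, 5.86 and 5.19 CPM in sG5C, and 0.713, 0.902 and 0.913 CPM in sNT8, with no overlap (log2 3.97 ± 0.13 SE). GBP4, a relative whose reads may be shared with other GBP genes, had 194, 210.2 and 255 CPM in sCAG, against 33.1, 39.8 and 48.7 CPM in sG5C, and 1.81, 3.17 and 2.74 CPM in sNT8. IDO1, the enzyme that degrades tryptophan, had 56.2, 56.9 and 72.02 CPM in sCAG, against 6.22, 7.80 and 9.91 CPM in sG5C, and 0.110, 0.435 and 0.530 CPM in sNT8. It was above sNT8 with both short RNAs and highest with sCAG. IFI16, a DNA sensor, and CASP4, an inflammatory caspase, were higher, at log2 2.17 and 2.17.

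Among RNA sensors, their adaptors and interferon genes, 30 of 38 passed the filter, 16 were higher and 10 lower, with a median of 0.35, or 0.22 when all 18 libraries were fitted. DDX58, which encodes the sensor RIG-I, had 399, 410.1 and 484 CPM in sCAG, against 62.96, 74.4 and 74.1 CPM in sG5C, and 35.1, 41.6 and 44.1 CPM in sNT8 (log2 2.61 ± 0.08 SE). MAVS, the mitochondrial adaptor that RIG-I signals through, had 455, 436 and 439.5 CPM in sCAG, against 153, 151 and 166 CPM in sG5C, and 346, 319.8 and 324 CPM in sNT8. The sG5C libraries lay below sNT8. ADAR, an RNA-editing enzyme, had 1169, 1274 and 1344 CPM in sCAG, against 464, 481 and 482 CPM in sG5C, and TICAM1, the adaptor of TLR3, was higher, at log2 1.11. IFNGR2, a chain of the interferon-gamma receptor, ran the other way, at 23.7, 23.7 and 23.6 CPM in sCAG, against 83.1, 76.5 and 74.7 CPM in sG5C. The interferon genes IFNB1 and IFNL1 did not pass the filter, with at most 0.192 CPM in any of the 9 libraries, and IFNL2, IFNL3 and IFNG of the list did not pass either. IFNE, which encodes interferon epsilon, was lower in sCAG, at 4.39, 3.94 and 4.19 CPM in sCAG, against 8.52, 10.6 and 7.44 CPM in sG5C, and 3.79, 4.45 and 4.71 CPM in sNT8 (log2 -1.08 ± 0.14 SE, adjusted p = 1.15e-07). The sG5C libraries lay above both other groups. IFNA1, an interferon-alpha gene whose reads may be shared with its near copies, did not pass the test, at 0.461, 0.129 and 0.512 CPM in sCAG, against 0.525, 0.795 and 0.577 CPM in sG5C (log2 -0.80 ± 0.42 SE, adjusted p = 0.0983).

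The upstream 250 bases of RefSeq promoters (GRCh38.p14) were searched for GAAANNGAAA on both strands, the core of the element known as the interferon-stimulated response element. Of 27305 genes with a promoter, 1014 held it, which is 3.71%. Of the 35 interferon-stimulated genes with a promoter in the table, 24 held it, and of 20 interferon-gamma type genes 8 held it. Among tested genes with a promoter in the table, 216 of 430 with a match were higher in sCAG, which is 50.2%. Without a match it was 4649 of 11705, which is 39.7%. The 430 include the 24 interferon-stimulated genes with a match. A match describes the letters only. CXCL10, on the minus strand at chr4:76023498-76023747, ISG15, a ubiquitin-like modifier, on the plus strand at chr1:1013247-1013496, and DDX60, an RNA helicase of the list, on the minus strand at chr4:168318753-168319002, are shown because they hold the element, in capitals, with 1, 2 and 2 matches; the 2 matches in ISG15 overlap.
CXCL10: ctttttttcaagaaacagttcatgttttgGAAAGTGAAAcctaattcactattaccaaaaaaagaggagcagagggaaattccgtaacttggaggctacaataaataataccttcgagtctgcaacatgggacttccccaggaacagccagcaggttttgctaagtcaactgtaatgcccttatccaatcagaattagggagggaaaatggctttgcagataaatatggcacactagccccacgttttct
ISG15: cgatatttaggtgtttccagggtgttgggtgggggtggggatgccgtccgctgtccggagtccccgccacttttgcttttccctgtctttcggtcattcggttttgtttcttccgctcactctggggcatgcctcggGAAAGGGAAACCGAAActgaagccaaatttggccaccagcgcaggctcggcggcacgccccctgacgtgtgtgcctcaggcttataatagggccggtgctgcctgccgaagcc
DDX60: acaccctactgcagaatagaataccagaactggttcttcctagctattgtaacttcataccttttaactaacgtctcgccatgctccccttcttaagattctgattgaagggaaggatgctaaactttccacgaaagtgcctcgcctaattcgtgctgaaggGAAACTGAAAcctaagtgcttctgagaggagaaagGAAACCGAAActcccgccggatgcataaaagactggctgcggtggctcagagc

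Genes that load and show peptides on MHC class I molecules were mostly higher in sCAG, with 16 of 22 higher, 1 lower and a median of 0.60. NLRC5, the activator of MHC class I genes, had 191, 222 and 239 CPM in sCAG, against 58.3, 69.9 and 86.9 CPM in sG5C, and 15.7, 22.3 and 22.5 CPM in sNT8. TAP2, a chain of the peptide transporter, TAPBP, its bridge to MHC class I, PSMB8, an immunoproteasome subunit, and ERAP2, a peptide trimming enzyme, were higher, at log2 0.96, 1.40, 1.15 and 1.23. HLA-E had 361, 411 and 443 CPM in sCAG, against 164, 199 and 217 CPM in sG5C, and reads may be shared among HLA genes. NF-kB and inflammatory genes were split more widely, with 33 of 37 tested, 21 higher, 5 lower and a median of 0.54. IL1B, the cytokine interleukin 1 beta, had 103, 134 and 123 CPM in sCAG, against 19.9, 23.9 and 19.7 CPM in sG5C, and 12.6, 30.9 and 24.5 CPM in sNT8. The sG5C libraries overlapped sNT8. ICAM1, an adhesion receptor for leukocytes, had 227, 264 and 296 CPM in sCAG, against 66.8, 73.8 and 85.4 CPM in sG5C, and CSF1, the macrophage growth factor, had 76.6, 79.98 and 88.2 CPM in sCAG, against 19.1, 18.6 and 21.03 CPM in sG5C. CXCL8, LIF and RELA, the p65 subunit of NF-kB, were higher, at log2 1.39, 1.24 and 1.00. IL6 did not pass the test, at 0.678, 1.37 and 1.57 CPM in sCAG, against 0.934, 0.707 and 0.988 CPM in sG5C (log2 0.45 ± 0.30 SE, adjusted p = 0.195; 0.76 and adjusted p = 0.0251 without library A of sCAG).

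Genes of cell death were higher in sCAG in 24 and lower in 11 of the 40 tested out of 44, with a median of 0.38. FAS, a death receptor, had 24.98, 26.5 and 30.2 CPM in sCAG, against 4.99, 5.09 and 6.75 CPM in sG5C, and 8.92, 9.74 and 11.02 CPM in sNT8. The sCAG libraries lay above and sG5C below sNT8 (log2 2.27 ± 0.11 SE). TNFSF10, the ligand TRAIL, had 23.5, 24.4 and 32.3 CPM in sCAG, against 2.10, 2.50 and 2.75 CPM in sG5C, and its receptor gene TNFRSF10B had 212, 228 and 219.6 CPM in sCAG, against 105, 105 and 109.7 CPM in sG5C. CASP10, a caspase of death receptors, MLKL, the executioner of necroptosis, and BAX, a pore-forming protein of mitochondria, were higher, at log2 2.63, 1.47 and 1.18. FASLG, the ligand of FAS, did not pass the filter.

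Genes of cell division were lower in sCAG than in sG5C. All 47 genes of mitosis and G2 were tested, 45 were lower and 2 higher, with a median of -1.52. TOP2A, which untangles chromosomes, had 133, 124 and 113 CPM in sCAG, against 490.2, 487 and 465 CPM in sG5C, and 364, 372 and 359 CPM in sNT8. The sG5C libraries lay somewhat above sNT8 (log2 -1.96 ± 0.06 SE). ANLN, a scaffold of the cleavage furrow, had 57.5, 56.1 and 51.6 CPM in sCAG, against 454, 417 and 399 CPM in sG5C, and BIRC5, the survivin subunit of the chromosomal passenger complex, had 55.4, 53.7 and 49.2 CPM in sCAG, against 337, 327 and 321 CPM in sG5C. PBK, BUB1 and CENPF, a mitotic kinase, a checkpoint kinase and a kinetochore protein, were lower, at log2 -2.98, -2.41 and -1.80. MKI67, the proliferation marker Ki-67, had 105, 109.5 and 100.2 CPM in sCAG, against 319, 303 and 301 CPM in sG5C, and 441, 441 and 449 CPM in sNT8. Both short RNAs lay below sNT8. The list's median over sNT8 was -1.56 for sCAG and 0.14 for sG5C.

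DNA replication genes were lower in 41 and higher in 2 of 47, with a median of -0.82. TK1, thymidine kinase, had 15.97, 17.4 and 18.2 CPM in sCAG, against 62.002, 61.7 and 58.1 CPM in sG5C, and RRM1, a subunit of ribonucleotide reductase, had 51.3, 51.4 and 48.3 CPM in sCAG, against 139.8, 138 and 129 CPM in sG5C. POLE and ORC1, a polymerase and an origin recognition subunit, were lower, at log2 -1.61 and -1.82. Of 59 replication-dependent histone genes 48 passed the filter, 37 were lower and 3 higher, with a median of -0.62; these genes are near-identical copies whose reads may be split. HIST1H3C had 37.5, 31.5 and 32.2 CPM in sCAG, against 108, 93.2 and 77.6 CPM in sG5C, and HIST1H2AG had 34.7, 28.2 and 26.6 CPM in sCAG, against 86.1, 79.2 and 71.5 CPM in sG5C. Over sNT8 the replication list had medians of -1.55 for sCAG and -0.77 for sG5C, and the histone list -1.59 and -0.86 in the same order.

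Cyclins, inhibitors and E2F genes of G1 went both ways, with 12 higher and 17 lower of 31. CDKN2A and CDKN2B, neighbouring genes of the inhibitors p16 and p15, were both higher in sCAG. CDKN2A had 164, 176 and 182 CPM in sCAG, against 32.5, 40.2 and 35.1 CPM in sG5C, and 169, 167 and 153 CPM in sNT8. The difference was a decrease in sG5C. CDKN2B had 142, 149 and 149 CPM in sCAG, against 29.4, 31.4 and 30.6 CPM in sG5C. CDKN1B, the inhibitor p27, had 39.5, 35.9 and 38.1 CPM in sCAG, against 171, 153 and 155 CPM in sG5C, and 38.2, 40.5 and 38.6 CPM in sNT8. It was raised in sG5C. CDKN1A, the cell cycle inhibitor p21, had 45.8, 51.3 and 56.1 CPM in sCAG, against 11.7, 9.48 and 11.1 CPM in sG5C, and 19.8, 24.6 and 19.9 CPM in sNT8. CCND3, cyclin D3, was lower, at log2 -1.94. MYC, a transcription factor of growth, had 665, 674 and 692 CPM in sCAG, against 233, 194 and 188 CPM in sG5C, and 497, 452 and 442 CPM in sNT8. The short RNAs lay on opposite sides of sNT8.

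Genes of hypoxia and glycolysis were the list with no member higher in sCAG: 33 of 37 tested out of 38 were lower, with a median of -0.99. ANGPTL4, a secreted inhibitor of lipoprotein lipase, had 16.7, 20.9 and 22.3 CPM in sCAG, against 307, 327 and 362 CPM in sG5C, and 9.71, 12.5 and 8.34 CPM in sNT8 (log2 -4.06 ± 0.10 SE, adjusted p = 1.16e-21). EGLN3, an oxygen-sensing hydroxylase, had 9.30, 9.93 and 9.75 CPM in sCAG, against 89.97, 84.98 and 90.02 CPM in sG5C, and 12.4, 13.2 and 12.4 CPM in sNT8. SLC2A1, the glucose transporter GLUT1, had 144, 174 and 178 CPM in sCAG, against 609, 574 and 621 CPM in sG5C, and 121, 134 and 122 CPM in sNT8. In these 3 genes every sG5C library lay above every sCAG and sNT8 library. PFKFB4, a regulator of glycolysis, SLC16A3, a lactate exporter, and KDM3A, a histone demethylase, were lower, at log2 -2.07, -2.01 and -1.27; SLC16A3 overlaps CSNK1D on the opposite strand. The list's median over sNT8 was 0.29 for sCAG and 1.28 for sG5C. Cholesterol and fatty acid synthesis genes were lower in 23 and higher in 7 of 35, with a median of -0.61. SQLE, squalene epoxidase, had 117, 138 and 122 CPM in sCAG, against 283, 299 and 287 CPM in sG5C, and INSIG2, which holds back this pathway, was lower, at log2 -1.42.

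Transcripts with an uninterrupted CTG run of at least 6 units were lower in sCAG far more often than the rest. In GENCODE 29 133 genes had such a run and 99 were tested, of which 75 were lower and 6 higher, which is 75.8% and 6.06%, against 31.1% and 31.7% over all genes. Their median was -1.44, and over sNT8 it was -1.29 for sCAG and 0.10 for sG5C. Genes with a CAG run of at least 6 units, the same letters on the other strand, had a median of 0.05, with 69 higher and 58 lower of 158. With a minimum of 4 units 296 of 535 genes were lower and 122 higher, with a median of -0.55, and with a minimum of 8 units 20 of 24 were lower and 0 higher, with a median of -1.53. Of the runs of at least 6 units, 66 were coding, and 56 of these genes were lower. In the 5′ UTR 8 of 12 were lower and 4 higher. In the 3′ UTR 6 of 10 were lower and 0 higher, and in noncoding transcripts 5 of 11 were lower and 0 higher. The median of sCAG over sNT8 was -1.94 for coding runs, -0.41 for the 5′ UTR, -0.18 for the 3′ UTR and -0.64 for noncoding transcripts. For sG5C over sNT8 these medians were 0.08, 0.11, 0.13 and 0.24 in the same order. Within the coding runs 46 of 54 read as leucine, 8 of 8 read as alanine and 2 of 4 read as cysteine were lower.

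No test was made of these counts. Several of these genes were far lower in sCAG than in the other PC3 groups. The 6 that were higher instead were CPA6, EFNA3, KCNK12, KCNK9, LSAMP and RNF220. LRRC59, a ribosome-binding protein of the endoplasmic reticulum, had 27.3, 27.6 and 31.8 CPM in sCAG, against 434, 403 and 389 CPM in sG5C, and 399, 412 and 399.7 CPM in sNT8. The sG5C libraries lay at the level of sNT8 (log2 -3.82 ± 0.06 SE, adjusted p = 1.61e-24). RPL14, a protein of the large ribosomal subunit with a run of 10 units, had 16.1, 20.8 and 18.6 CPM in sCAG, against 145, 169 and 133 CPM in sG5C, and 238, 239 and 234 CPM in sNT8. Its processed copy RPL14P1, which shares the run, was lower, at log2 -5.25, and reads may be shared between them. BRI3BP, a mitochondrial membrane protein with 9 units, had 4.58, 3.25 and 3.87 CPM in sCAG, against 36.9, 36.5 and 33.3 CPM in sG5C, and 58.4, 55.02 and 50.9 CPM in sNT8. PTTG1IP, a partner of securin, MLEC, a sugar-binding protein of the endoplasmic reticulum, and LRP5, a Wnt co-receptor, were picked after their values were seen. PTTG1IP had 26.9, 25.2 and 26.4 CPM in sCAG, against 379, 358 and 356 CPM in sG5C, MLEC had 22.7, 21.5 and 22.2 CPM in sCAG, against 296, 281 and 279.5 CPM in sG5C, and LRP5 had 21.9, 21.4 and 20.5 CPM in sCAG, against 227, 219.6 and 239 CPM in sG5C. PRKCSH, the beta subunit of glucosidase II, has at most 4 units in a row in its transcripts and was lower all the same, at 35.9, 35.9 and 34.1 CPM in sCAG, against 327, 329 and 327 CPM in sG5C, and 529.6, 489 and 472 CPM in sNT8.

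The genes with the longest runs differed by unequal amounts. Of the 8 longest tested runs, DMPK, the kinase of myotonic dystrophy, has 20 units in its 3′ UTR and had 8.24, 9.51 and 8.57 CPM in sCAG, against 14.7, 15.1 and 18.01 CPM in sG5C (log2 -0.86 ± 0.10 SE). ANKUB1, an ankyrin repeat protein, also has 20 units in a 3′ UTR and did not pass the test, at 0.814, 0.902 and 0.831 CPM in sCAG, against 0.847, 0.412 and 0.714 CPM in sG5C (log2 0.37 ± 0.35 SE, adjusted p = 0.376). CASK, a scaffold kinase, has 16 units in a 3′ UTR and was lower, at log2 -0.86. LRP8, a reelin receptor, and MAP3K4, a stress kinase, have 11 coding units each and were lower, at log2 -1.97 and -0.50. The noncoding transcripts AC005540.1 and AC125494.1 have 15 and 14 units. AC005540.1 did not pass the test (log2 -0.08, adjusted p = 0.712), and AC125494.1 was lower, at log2 -2.18, with 3 to 15 reads in each sCAG library and 31 to 53 in each sG5C library. LMLN2, with 10 coding units, was lower, at log2 -1.51, and shares that length with 4 other tested genes. Of these 4, LTBP3, which binds latent TGF-beta, and NOTCH4, a Notch receptor, were lower, at log2 -0.91 and -1.15, and RPL14 and its pseudogene RPL14P1 at log2 -3.01 and -5.25. Exons of AC005540.1, AC125494.1, LMLN2 and NOTCH4 overlap another gene. KCNK12, a potassium channel gene with 6 coding units, was 1 of the 6 that were higher, at 1.52, 1.01 and 0.991 CPM in sCAG, against 0.555, 0.471 and 0.494 CPM in sG5C, and 4.75, 4.60 and 5.24 CPM in sNT8. The reference genome sets these lengths, and the lengths of the runs in PC3 cells were not measured.

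**Figure D3:**
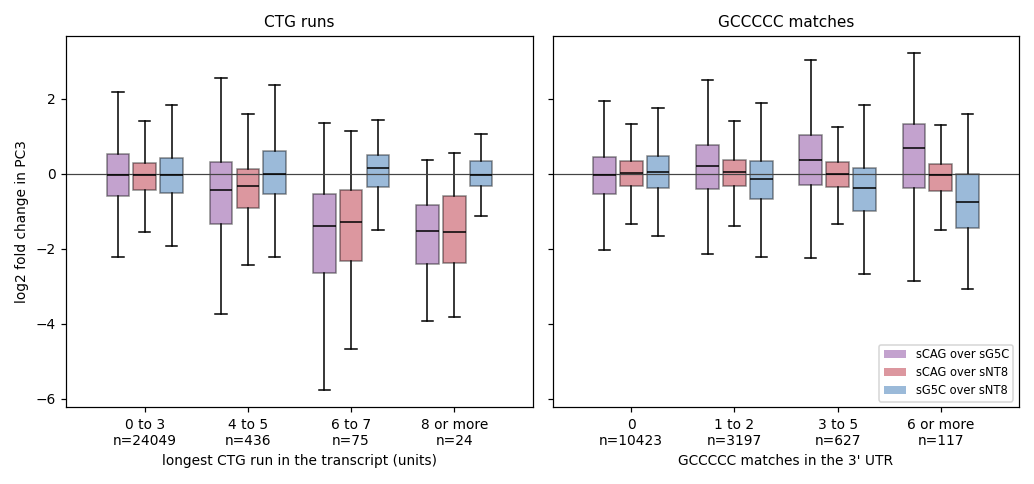
Log2 fold changes in PC3 (vertical axis) by the longest CTG run of a gene (left) and by GCCCCC matches in the 3′ UTR (right), for sCAG over sG5C, sCAG over sNT8 and sG5C over sNT8; boxes span the quartiles with the median as a line, whiskers follow the Tukey rule, genes beyond them are not drawn, and the number of genes stands under each class. The classes of 6 to 7 and of 8 or more CTG units are low in sCAG, and the classes with more GCCCCC matches are low in sG5C by less.

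Genes with GCCCCC in the 3′ UTR were higher in sCAG than in sG5C more often than those without it. At least 1 match was present in 3941 of 14364 tested genes with a 3′ UTR, which is 27.4%; 50.9% of them were higher and 29.7% lower, with a median of 0.23, against 35.5% higher, 38.5% lower and a median of -0.03 in the 10423 genes with no match. With at least 3 matches the median was 0.40 in 744 genes, and with at least 6 it was 0.68 in 117 genes. Over sNT8 the median of the genes with at least 6 matches was -0.04 for sCAG and -0.75 for sG5C. Length and base composition moved with the number of matches, since genes with no match had a median 3′ UTR of 812 bases at 38.98% GC and genes with at least 3 matches one of 2553 bases at 55.8% GC. The hexamer CCCCCG, the same letters in another order, which shares up to 5 letters with GCCCCC at an overlap, gave medians of 0.19 with at least 1, 0.40 with at least 3 and 0.75 with at least 6 matches, the last in 9 genes. Over sNT8 the median of these 9 genes was -0.11 for sCAG and -0.98 for sG5C. Of the 9 genes 5 were higher and 4 lower, with a median of -0.10 in HeyA8, whereas of the 117 genes with at least 6 GCCCCC matches 73 were higher and 32 lower. The part of length and composition was not tested.

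EIF5A, a translation factor known for its hypusine residue, had 443, 454 and 452 CPM in sCAG, against 62.6, 53.9 and 48.7 CPM in sG5C, and 469.9, 459 and 447 CPM in sNT8. The sCAG and sNT8 libraries were close and sG5C was low (log2 3.03 ± 0.07 SE). EIF4EBP1, an inhibitor of cap-dependent translation, had 49.2, 50.1 and 52.5 CPM in sCAG, against 6.92, 6.95 and 5.71 CPM in sG5C, and 57.8, 49.3 and 52.6 CPM in sNT8. POLR2E, a shared subunit of RNA polymerases, had 109, 115 and 111 CPM in sCAG, against 22.04, 20.6 and 23.6 CPM in sG5C, and 113, 115 and 112 CPM in sNT8. These genes have 4, 1 and 3 matches in that order, as HMGA1 has 5. AGO2, with 7 matches, had 520.0, 527 and 509 CPM in sCAG, against 628, 598 and 597 CPM in sG5C, and 587, 592 and 645 CPM in sNT8. HOXB13, with 0 matches, was higher in sCAG as given above. POLR2K, another polymerase subunit of the comparison list of chaperonin, coatomer and RNA polymerase II genes, was higher in sCAG, at log2 2.74; that list as a whole had 6 higher and 11 lower of 28 and a median of -0.05, which was -0.17 with library totals and -0.0997 without library C of sG5C.

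Genes of the translation machinery were moderately higher in sCAG. Of 78 cytosolic ribosomal protein genes 58 were higher and 5 lower, with a median of 0.34, and RPL14 was the largest exception. RPL28 had 783, 822 and 869 CPM in sCAG, against 318, 296 and 254 CPM in sG5C, and RPS23 was higher, at log2 1.06. Of 37 translation initiation factors 25 were higher and 6 lower, with a median of 0.30; EIF4G1, the scaffold of the cap-binding complex, was higher, at log2 0.94, and EIF4EBP2 was lower, at log2 -0.94. The nuclear-encoded oxidative phosphorylation list had 27 higher and 7 lower of 55, with a median of 0.20, and CYC1, cytochrome c1, was higher, at log2 1.10. Scaled by library totals, which put the median of all genes at -0.16, the ribosomal protein, initiation factor and oxidative phosphorylation medians were 0.22, 0.18 and 0.077. Over sNT8 the ribosomal protein median was 0.01 for sCAG and -0.35 for sG5C. Proteasome core genes ran the other way, with 22 lower and 4 higher of 31 and a median of -0.34; PSMD1 had 123, 127 and 123 CPM in sCAG, against 232, 220.0 and 218 CPM in sG5C. Aminoacyl-tRNA synthetases were higher in 12 and lower in 5 of 20, among them AARS, higher, at log2 1.13, and GARS, lower, at log2 -1.45. In the integrated stress response list 18 were higher and 9 lower of 30 tested out of 31, and SLC3A2, an amino acid transporter chain, was higher, at log2 1.14 while PHGDH, the first enzyme of serine synthesis, was lower, at log2 -1.55.

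In the machinery of RNA interference 28 of 29 genes were tested, 6 were higher and 15 lower, with a median of -0.22. DROSHA, the nuclear enzyme that cuts microRNA precursors, had 182, 187 and 187 CPM in sCAG, against 49.7, 47.2 and 51.3 CPM in sG5C, and 158, 158 and 165 CPM in sNT8. The difference was a decrease in sG5C. DICER1, which makes mature microRNAs, had 192, 192 and 193 CPM in sCAG, against 329, 319 and 319 CPM in sG5C, and 262, 246 and 279 CPM in sNT8. AGO1, an Argonaute protein, had 87.5, 97.02 and 91.3 CPM in sCAG, against 135, 125 and 126 CPM in sG5C, and AGO2, the one that cleaves its targets, was at log2 -0.23. DCP2, the decapping enzyme, had 38.2, 35.99 and 33.2 CPM in sCAG, against 185, 184 and 175 CPM in sG5C, and 47.8, 43.02 and 45.5 CPM in sNT8. It was raised in sG5C. TNRC6C, a partner of Argonaute proteins, was lower, at log2 -1.50, and XRN1, a nuclease that degrades decapped RNA, was higher, at log2 1.47. Of 16 loci of repeat diseases 15 were tested, 6 higher and 8 lower.

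Folding genes of the endoplasmic reticulum went both ways, with 10 higher and 16 lower of 34. GANAB, the catalytic partner of PRKCSH in glucosidase II, was higher, at log2 1.03, and HSP90B1, a chaperone, at log2 0.89. PDIA6, a disulfide isomerase, was lower, at log2 -1.08, and EIF2AK3, the stress sensor PERK, with 8 coding CTG units, was lower, at log2 -1.55. In the heat shock list 6 were higher and 10 lower of 20; HSF1, the factor that drives heat shock genes, had 625, 637 and 638 CPM in sCAG, against 142, 142 and 144 CPM in sG5C, whereas HSP90AA1, a chaperone, was lower, at log2 -1.10. Lysosomal genes were higher in 16 and lower in 9 of 31 tested out of 32, with CTSL and TPP1, both lysosomal proteases, higher, at log2 2.09 and 1.80 and LAMP1, a membrane protein, lower, at log2 -1.31. Among immediate early genes 18 were higher and 8 lower of 29 tested out of 30, and FOSL1 and JUN, subunits of AP-1, were higher, at log2 1.33 and 1.17. TXNIP, an inhibitor of thioredoxin, had 329, 304 and 324 CPM in sCAG, against 113, 99.3 and 97.5 CPM in sG5C.

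Matrix genes were higher in 27 and lower in 13 of 45 tested out of 53, with a median of 0.42. TNC, the glycoprotein tenascin C, had 911, 1011 and 1048 CPM in sCAG, against 98.7, 104 and 104 CPM in sG5C, and 441, 433 and 448 CPM in sNT8. The short RNAs lay on opposite sides of sNT8. COL4A2, a basement membrane collagen, had 133, 132 and 129.6 CPM in sCAG, against 26.6, 24.9 and 25.04 CPM in sG5C, and TIMP2, an inhibitor of metalloproteinases, had 412, 431 and 448 CPM in sCAG, against 86.03, 79.98 and 73.6 CPM in sG5C. COL12A1, a fibril-associated collagen, was higher, at log2 1.87. Integrins had 7 higher and 7 lower of 17 tested out of 18: ITGA3, a laminin receptor chain with 5 GCCCCC matches, had 1086, 1131 and 1212 CPM in sCAG, against 315, 303 and 317 CPM in sG5C, while ITGA2 and ITGB4 were higher, at log2 0.93 and 0.80 and ITGAV was lower, at log2 -0.54. Genes of the epithelial-mesenchymal transition were higher in 10 and lower in 5 of 21 tested out of 23. SNAI2, a repressor of epithelial genes, had 115, 120.1 and 120.0 CPM in sCAG, against 22.4, 22.1 and 15.5 CPM in sG5C, VIM, the filament protein vimentin, was lower, at log2 -0.96, and TGFBR1, a receptor of TGF-beta, was lower, at log2 -1.79. CDH1, the epithelial cadherin, with 5 CTG units, had 0.515, 0.309 and 0.672 CPM in sCAG, against 4.23, 5.62 and 4.996 CPM in sG5C, and 3.13, 2.71 and 3.12 CPM in sNT8.

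**Figure D4:**
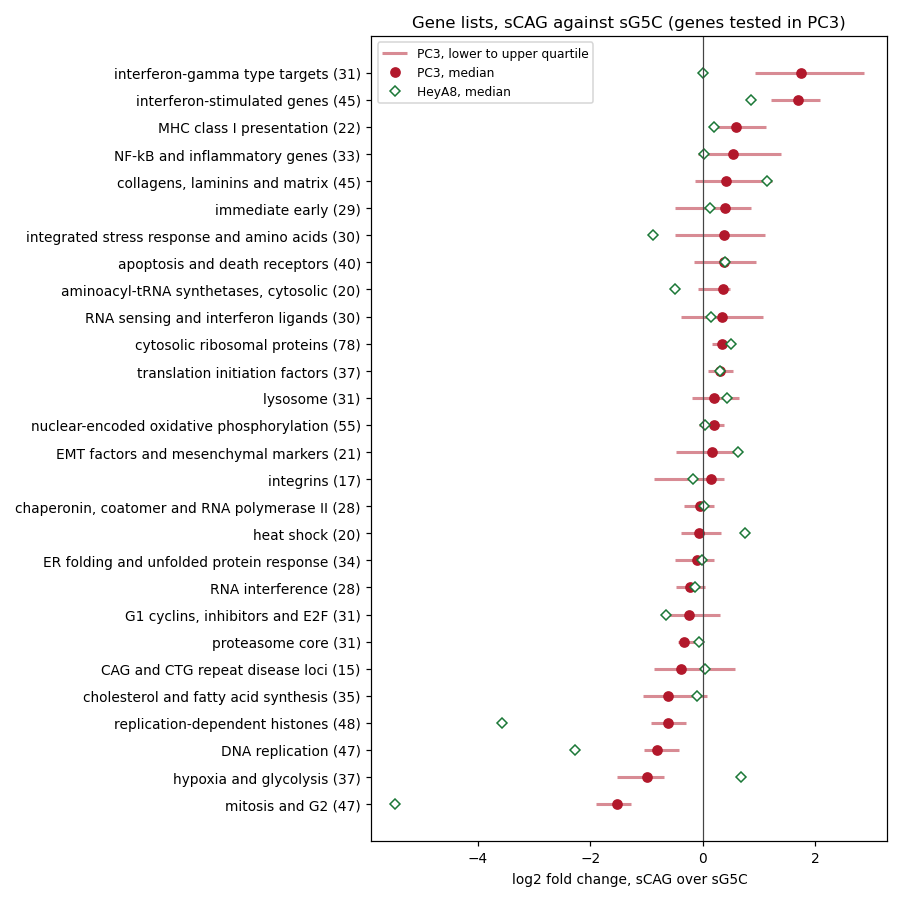
Median log2 fold change of sCAG over sG5C (horizontal axis) of 28 gene lists in PC3, as filled circles with a bar from the lower to the upper quartile, and the median of the same lists in HeyA8 as open diamonds; the number of genes tested in PC3 is in brackets. Interferon lists stand highest in PC3 and mitosis lowest, and the hypoxia and glycolysis list lies below 0 in PC3 and above 0 in HeyA8.

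The same comparison in HeyA8 uses no library of PC3, so the lines can be set beside each other and their difference tested. In HeyA8 29.6% of 27105 genes were higher and 27.7% lower in sCAG. Across genes with at least 1 CPM in each of the 4 groups, the log2 differences of the lines had a Pearson r of 0.56 and a Spearman rho of 0.53 over 13508 genes, and over all 27105 genes tested in both lines 0.41 and 0.43; genes are not independent replicates. The difference between the lines itself was called in 43.6% of 27105 genes, with 6237 genes, 23.0%, higher in PC3 than in HeyA8 and 5581 genes, 20.6%, lower. With libraries scaled by totals alone the split was 7604 higher and 4372 lower. No source used here says whether the lines were handled together, so differences of line and of handling cannot be told apart.

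Cell division genes were lower in sCAG in both lines, in 45 of 47 mitosis genes in PC3 and 47 of 47 in HeyA8. The median of the mitosis list was -1.52 in PC3 and -5.47 in HeyA8, and the interaction was called for 47 of 47 genes, all of them higher in PC3. DNA replication had medians of -0.82 in PC3 and -2.27 in HeyA8, with 45 of 47 genes called higher in PC3 and 1 lower. HeyA8 levels are CPM scaled jointly over all 18 libraries. TOP2A, at the PC3 levels given above, had 4.68, 4.42 and 4.95 CPM in HeyA8 sCAG, against 772, 751 and 732 CPM in HeyA8 sG5C. The other genes at the top of the interaction were DEPDC1, a mitotic regulator, HJURP, the chaperone of the centromere histone, CKAP2L, a spindle protein, and HIST1H1D, a linker histone. DEPDC1 had 48.1, 53.7 and 47.4 CPM in sCAG, against 128, 135 and 125 CPM in sG5C in PC3, and 1.15, 0.990 and 1.22 CPM in HeyA8 sCAG, against 179, 178 and 185 CPM in HeyA8 sG5C. HJURP had 18.8, 18.7 and 18.3 CPM in sCAG, against 98.8, 90.3 and 93.3 CPM in sG5C in PC3, and 1.47, 1.09 and 0.983 CPM in HeyA8 sCAG, against 238, 231 and 222 CPM in HeyA8 sG5C. CKAP2L was lower at log2 -1.48 in PC3 and -6.70 in HeyA8. HIST1H1D was at log2 -0.36 in PC3, a call that was lost with DESeq2 and limma and without library A of sG5C or library B or C of sCAG, and at -6.03 in HeyA8.

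Hypoxia and glycolysis genes took opposite directions in the lines. The list's median was -0.99 in PC3 and 0.69 in HeyA8, with 29 of its genes higher in sCAG in HeyA8 and 6 lower, and the interaction was called lower in PC3 for 36 of 38 genes and higher for 1. ANGPTL4, which was lower in PC3, had 108, 111 and 110.4 CPM in HeyA8 sCAG, against 15.9, 18.7 and 19.1 CPM in HeyA8 sG5C. The other genes at the low end of the interaction were FN1, the matrix protein fibronectin, L1CAM, a neural adhesion molecule, PAG1, a membrane adaptor, and PTPRU, a receptor phosphatase. FN1 had 56.4, 58.5 and 57.9 CPM in sCAG, against 150.0, 149 and 151 CPM in sG5C in PC3, and 29256, 29076 and 31701 CPM in HeyA8 sCAG, against 1344, 1433 and 1306 CPM in HeyA8 sG5C. L1CAM had 1.76, 1.70 and 1.66 CPM in sCAG, against 16.1, 11.6 and 12.7 CPM in sG5C in PC3, and 34.3, 33.3 and 34.3 CPM in HeyA8 sCAG, against 2.36, 1.99 and 2.48 CPM in HeyA8 sG5C. PAG1 and PTPRU were lower in PC3, at log2 -2.22 and -0.88, and higher in HeyA8, at log2 3.11 and 4.05.

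**Figure D5:**
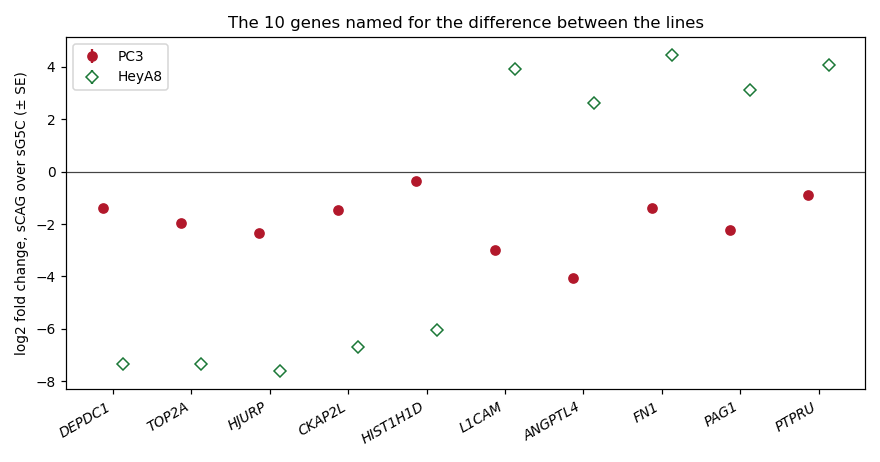
Log2 fold change of sCAG over sG5C (vertical axis) with its standard error for the 10 genes named for the difference between lines, in PC3 (filled circles) and HeyA8 (open diamonds); standard errors are mostly smaller than the symbols. The 5 genes on the left lie below 0 in both lines and further below in HeyA8, and the 5 on the right lie below 0 in PC3 and above 0 in HeyA8.

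The interferon lists differed between lines in another way. Interferon-stimulated genes had medians of 1.70 in PC3 and 0.85 in HeyA8, with 27 of 45 called higher in PC3 and 2 lower. Interferon-gamma type genes had medians of 1.75 in PC3 and 0.00 in HeyA8, where genes with no read stand at 0. Of these 31 genes 18 were called higher in PC3 and 3 lower. The 31 include genes with few or no reads in HeyA8, so the count cannot separate a different response from a lack of expression there. CXCL9, CXCL10 and CXCL11 could not be set against HeyA8, where their levels were at most 0.0275 CPM in any library. Genes with a CTG run of at least 6 units had medians of -1.44 in PC3 and -1.06 in HeyA8, and those with at least 6 GCCCCC matches had 0.68 in PC3 and 0.53 in HeyA8. LRRC59, C4orf48, RPL14 and BRI3BP were lower in both lines, at log2 -3.82, -4.70, -3.01 and -3.19 in PC3 and -2.92, -4.34, -3.67 and -3.82 in HeyA8. Of the 75 genes with such a run that were lower in PC3, 59 were lower in HeyA8 and 7 were higher there. CASK was 1 of these 7, at log2 -0.86 in PC3 and 1.43 in HeyA8. The tested runs in 3′ UTRs had a median of -0.72 in PC3 and 0.48 in HeyA8 over 10 genes. EIF5A and HMGA1 were higher in both, at log2 3.03 and 5.06 in PC3 and 2.59 and 1.83 in HeyA8.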

How the data were processed

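RNA of 18 libraries was sequenced from total RNA. The authors aligned reads to hg38 with TopHat and Bowtie2, counted them with HTSeq and compared groups with DESeq2, per the submitters' processing notes; no source used here gives versions or the strand setting. The 4 deposited tables hold a normalized signal per library, which is reads divided by a size factor, in 6 libraries a table, beside the authors' mean signal, log2 fold changes over sNT8, their standard errors, Wald scores and p-values, which were read but not used as results. Dividing each deposited signal column by its smallest non-zero value gave whole reads for 100% of values, at a tolerance of 1e-06. No deposited column was left without a sample.

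Counts of the 9 PC3 libraries were fitted together with edgeR 4.0.16 (R 4.3.3), using TMM scaling, filterByExpr with a minimum count of 10 and the quasi-likelihood test, and p-values were adjusted by Benjamini-Hochberg over all 24618 genes. All 18 libraries were fitted for the difference between lines. A call is an adjusted p under 0.05. Named genes were the 12 highest and 12 lowest protein-coding genes past the threshold, with at least 5 CPM in the higher group and no overlap, up to 6 of each list by p, the 5 highest and 5 lowest of the difference between lines with at least 1 CPM in each of the 4 groups, the 8 longest CTG runs, and a fixed set. PTTG1IP, MLEC, LRP5, KCNK12, RPL14P1, LTBP3, NOTCH4, KDR, IFNE and IFNA1 were added after their values were seen. The members and lists were chosen with earlier results of these data known. Some results are not reported here. Of 58395 gene IDs, 58216 matched GENCODE 29.

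Libraries with the same letter deviated together from their group means. The r was 0.203 for A, 0.144 for B and 0.191 for C over 10360 genes between sCAG and sG5C. The reported fits used the group alone and did not pair libraries by letter. The letter entered only as the replicate block, which is among the alternatives. No pair of libraries of a PC3 group agreed within sampling noise. Alternatives were scaling by library totals and by DESeq2 size factors, DESeq2 1.42.0, limma 3.58.1, other filters, other sets of libraries, the replicate block and leaving out each library. The procedure was tested on simulated data. Intervals cover counting error only.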

Additional observations from a re-analysis of the deposited data

Results flagged for a closer look

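The response to sCAG over sG5C differed between the lines in the 10 genes below, by a test of the difference itself (interaction term of edgeR's quasi-likelihood fit over 18 libraries), and each value is the PC3 log2 fold change minus that of HeyA8. DEPDC1, a mitotic regulator, differed by 5.99, HIST1H1D, a linker histone, by 5.71, and TOP2A, a topoisomerase, by 5.41. HJURP, a centromere chaperone, differed by 5.3 and CKAP2L, a spindle protein, by 5.26. In these 5 genes the fold change was negative in both lines and further from 0 in HeyA8. L1CAM, an adhesion molecule, differed by -6.83, ANGPTL4, a lipase inhibitor, by -6.63 and FN1, fibronectin, by -5.8. PAG1, a membrane adaptor, differed by -5.28 and PTPRU, a receptor phosphatase, by -4.89. In these 5 genes sCAG lay below sG5C in PC3 and above it in HeyA8. The genes were chosen for the size of this difference, and all 10 kept its direction and its call under each of 18 alternatives.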

How the results depend on the processing

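The counts of called genes stayed within 1.5 times the reported ones in all 108 values computed. Leaving out 1 library gave 14471 to 15764 genes called in PC3 and 11172 to 11425 for the difference between lines. With the replicate block 15771 genes were called, 7936 higher and 7835 lower, and 12055 for the difference between lines, and the block changed no call of a named gene. With library totals the median over all genes was -0.16 on the log2 scale, against -0.04, and the PC3 split was 6608 higher and 9059 lower.

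Of the 164 genes named in PC3, 5 changed call or sign under some alternative. IRF9 took -0.117 with library totals, -0.0011 with limma and -0.0637 with a count minimum of 50, and ran between -0.0927 and 0.129 when 1 library was left out. AC005540.1 ran between -0.1692 and 0.0173. Of 33 list medians 30 moved by more than the spread between replicates under some alternative. With library totals 8 medians shrank and 4 grew by over 1.5 times with the same sign, among them RNA sensing at 0.2301, integrins at 0.0237, the epithelial-mesenchymal list at 0.0483 and lysosome at 0.0867. With all 18 libraries 6 shrank and 1 grew, without a filter 4 shrank, and with a count minimum of 50 4 shrank and 3 grew. The median of the comparison list was 0.0137 without a filter, -0.1688 with library totals and -0.1164 with a count minimum of 50, and ran between -0.0997 and -0.0382 when 1 library was left out. That of the repeat disease loci was 0.0928 with a count minimum of 50. The heat shock median ran between -0.1338 and 0.0335 when 1 library was left out. The fibroblast marker median was -0.0365 with library totals and ran between -0.1406 and 0.2273. The cause of these changes was not tested. Depth limits the low genes: CXCL9, TMEFF2 and the interferon genes rest on few reads in at least 1 group.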
